A study of Mus musculus and Rattus norvegicus with 51 samples.

Results

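Gene expression was compared between total livers of Hmgb1ΔHepΔMye mice that had been given WT HMGB1 and livers of WT mice, both after 4 weeks of carbon tetrachloride (CCl4). The comparison took every library that the labels put in these groups, 4 of the knockout and 4 of WT, which are 8 of the 51 libraries of the series. They come from a table of 21 liver libraries that lists 24982 genes, of which 14129 had enough counts to be tested. The genotype label carries the suffixes Hep and Mye, and the labels name neither the promoter that drives either deletion nor the form in which WT HMGB1 was supplied. The name of the deposited table also holds AAV8, which is not spelled out. The labels of the WT mice name no supplied HMGB1, so the effects of the deletions and of the supplied HMGB1 cannot be told apart. The same genotypes were also sampled after 4 weeks of MO, an agent that the labels name only by these letters, with 3 libraries of the knockout given WT HMGB1 and 3 of WT. These MO livers share no library with the CCl4 comparison. All mice are labelled male and no age is given. Whether numbered libraries come from separate animals is not in the labels; the p-values here speak of the spread among these libraries alone.

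HMGB1 is an abundant chromatin protein that binds and bends DNA inside the nucleus. Dying or activated cells release it, and outside the cell it acts as a danger signal whose activity depends on the oxidation of its cysteines and whose receptors include Toll-like receptors and RAGE. CCl4 is converted by cytochromes P450 of pericentral hepatocytes into a radical that kills these cells, and repeated doses lead to inflammation, regeneration and scarring by collagen-producing stellate cells.

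Under CCl4 the knockout livers with WT HMGB1, called knockout livers from here on, differed widely from WT livers. A total of 4069 of 14129 genes (28.8%) passed an adjusted p of 0.05 in edgeR's quasi-likelihood test with Benjamini-Hochberg adjustment, 2230 of them higher in knockout livers (15.8%) and 1839 lower (13%). At least 2-fold changes were called for 911 higher (6.45%) and 486 lower genes (3.44%). The CPM ranges of both groups did not overlap for 4450 genes (31.5%). Mitotic genes, collagens, Kupffer cell genes and sinusoidal endothelial genes were higher. Chaperones of the endoplasmic reticulum, heat shock genes and some targets of the lipid receptor PPAR-alpha were lower. In bulk tissue a change in the number of cells of a type and in their RNA per cell cannot be told apart. Levels are given as CPM, with TMM-adjusted library sizes and no correction for gene length, and differences as log2 of knockout over WT with their standard error (SE). The median log2 difference over all tested genes was 0.02, against which the medians of gene lists below can be read. Counts of list members called can be read against the 15.8% higher and 13% lower of all tested genes.

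Each knockout liver held 28632472 to 33816359 gene counts under CCl4, against 27226583 to 34022125 in WT livers. Among these 8 livers the first principal component (58.4% of variance) separated knockout from WT livers, and WT library 4 stood apart from the other WT livers on the second (16.6%). A library of the MO livers went against its label: knockout library 3 of MO held 845 CPM of the X-inactivation RNA Xist and 0.154 CPM of the Y-linked gene Ddx3y, although it is labelled male. In the CCl4 livers Xist reached 0 to 0.461 CPM in knockout livers and 0.0271 to 0.149 CPM in WT livers, and Ddx3y 58.8 to 76.8 CPM against 62.4 to 76.2 CPM. A library of a group not compared here also held Xist, so counts that use the MO livers are given with and without both. Single genes are given with both kept unless stated otherwise, and each MO difference named below as a rise or a fall was also called without them. Albumin and the other hepatocyte markers summed to 86600 to 106000 CPM in knockout livers and 92800 to 140000 CPM in WT livers, and those of muscle and fat were near 0.

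**Figure D1:**
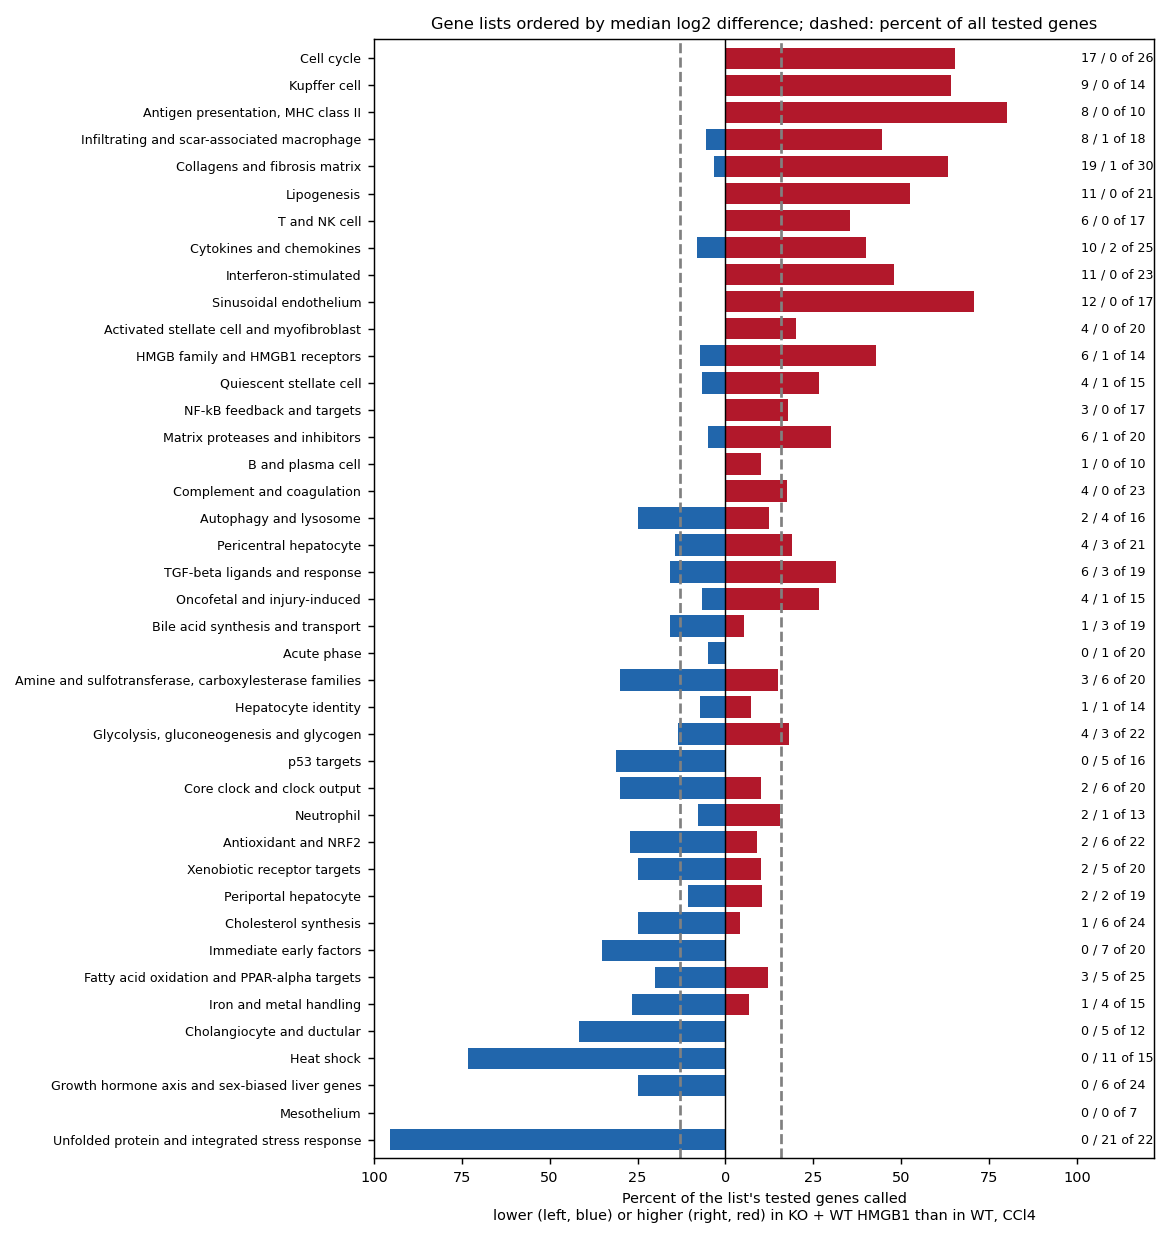
Percent of tested members of each gene list called lower (blue, left) or higher (red, right) in knockout livers with WT HMGB1 than in WT livers under CCl4, with the counts higher / lower of tested at the right; dashed lines mark the percent of all tested genes (13% lower, 15.8% higher). The unfolded protein list stands at 0 higher and 21 lower of 22, and the cell cycle list at 17 higher and 0 lower of 26.

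Hmgb1 itself (chr5:149046702-149053057, GRCm38) was not called different. Its level was 50.5, 44.9, 65.4 and 74.1 CPM in knockout livers against 65.5, 57.2, 69.5 and 107 CPM in WT livers. The ranges overlapped, the log2 difference was -0.35 ± 0.19 (SE) and the adjusted p 0.188; with the replicate number as a block the difference was -0.48 with an adjusted p of 0.0179. A gene count does not separate the deleted locus from Hmgb1 in other liver cells or from supplied HMGB1, so it checks neither the deletion nor the dose. Under MO the levels were 69.7, 63.9 and 74.7 CPM in knockout livers and 72.8, 74.5 and 77.3 CPM in WT livers. The related chromatin proteins rose: Hmgb2, which is abundant in dividing cells, was 18.99, 22.2, 30.7 and 34.4 CPM in knockout livers against 6.43, 4.40, 7.10 and 4.52 CPM in WT livers. All 4 knockout livers lay above all 4 WT livers, with a log2 difference of 2.24 ± 0.27 (SE) and an adjusted p of 1.05e-05. Hmgb3 also rose, by 1.02 ± 0.14 on the log2 scale (adjusted p 4.16e-05). Of 14 tested genes of the HMGB family and its receptors, 6 rose and 1 fell, with a median log2 difference of 0.35.

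Among the receptors, the Toll-like receptor gene Tlr2 was 14.2, 20.1, 11.9 and 12.1 CPM in knockout livers against 6.18, 4.99, 5.36 and 2.80 CPM in WT livers, without overlap (log2 difference 1.59 ± 0.28, adjusted p 0.000325). Tlr4, the endotoxin receptor that also binds HMGB1, rose by 0.94 ± 0.23 on the log2 scale (adjusted p 0.00441). Tlr9, the receptor for unmethylated DNA, rose by 1.03 ± 0.27 (adjusted p 0.00743). The myeloid amplifier receptor Trem1 was low, at 0.486 to 0.763 CPM in knockout livers and 0.112 to 0.416 CPM in WT livers; its call (log2 difference 1.22 ± 0.38, adjusted p 0.0197) was lost without WT library 4 (adjusted p 0.064) or knockout library 4 (0.0534). The TLR4 co-receptor Cd14 went the other way, with 10.48, 10.8, 10.9 and 12.8 CPM in knockout livers against 17.0, 40.7, 15.6 and 41.6 CPM in WT livers (log2 difference -1.35 ± 0.39, adjusted p 0.0143). That call was lost without WT library 2 (adjusted p 0.0518) and with the replicate block (-1.16, adjusted p 0.063). Ager, the gene of RAGE, stayed under 1 CPM in every liver of both groups and was not called (adjusted p 0.825).

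**Figure D2:**
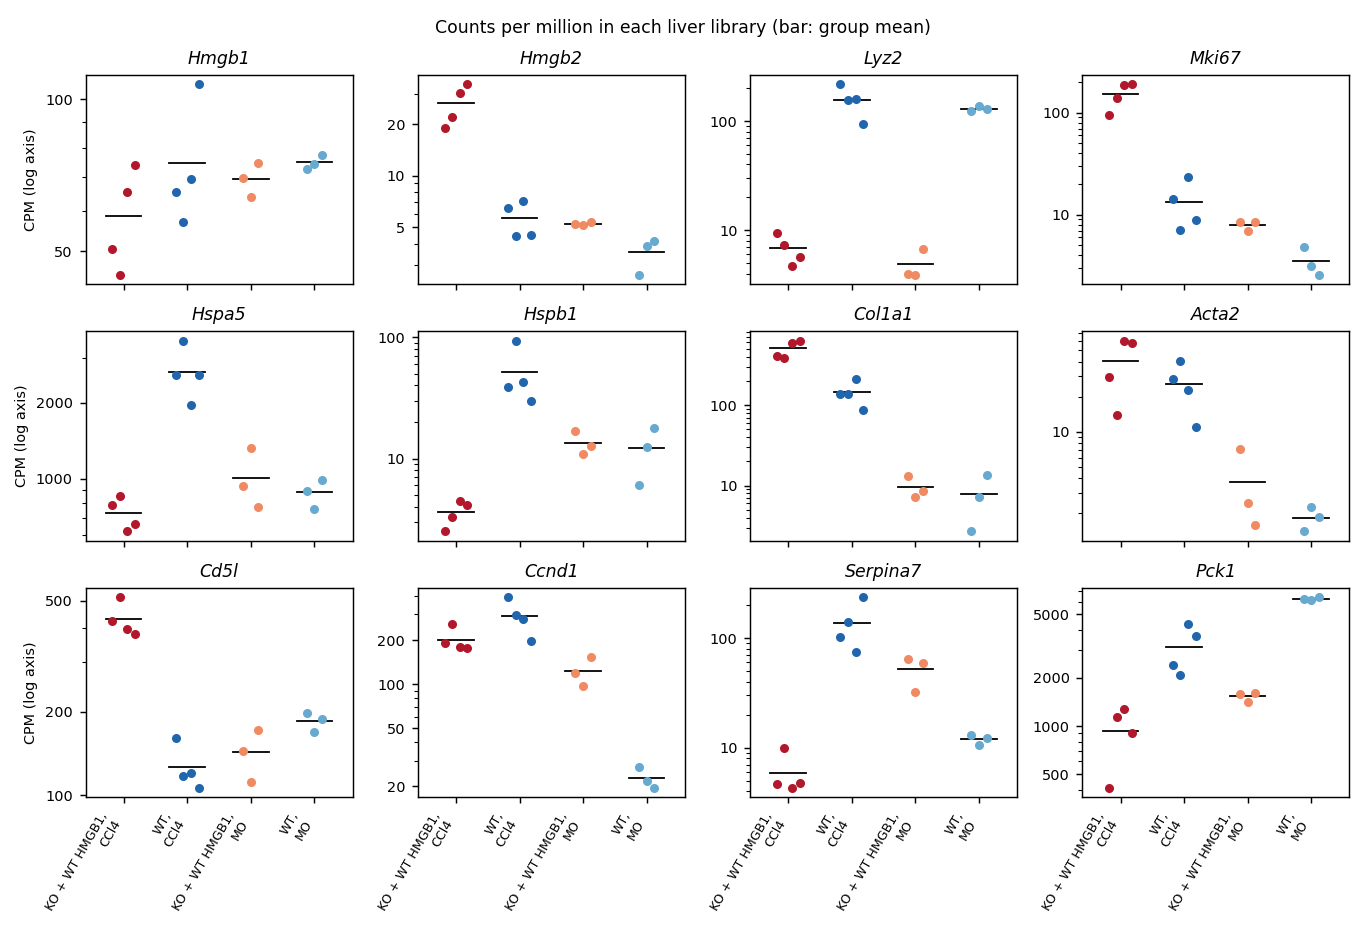
CPM on a log axis of 12 genes in each library of the knockout with WT HMGB1 and of WT, under CCl4 and under MO; points are libraries and bars are group means. Lyz2 is low in all knockout livers, Mki67, Col1a1 and Cd5l are highest in the knockout livers under CCl4, and Hspa5 and Hspb1 are highest in WT livers under CCl4.

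Lyz2 fell far with little spread between libraries. This gene, on chromosome 10, encodes the lysozyme of macrophages and neutrophils, and its locus is widely used in mice to drive deletion in myeloid cells, although the labels name no driver. It was at 9.51, 7.36, 4.76 and 5.69 CPM in knockout livers against 218, 155, 160.0 and 94.7 CPM in WT livers. The log2 difference was -4.52 ± 0.34 (SE, adjusted p 2.53e-07). Under MO it was at 4.01, 3.93 and 6.74 CPM in knockout livers and 123, 137 and 129 CPM in WT livers, with a log2 difference of -4.71 ± 0.40 (adjusted p 4.39e-07); the interaction, the test of the difference between both genotype effects, was 0.19 ± 0.47 (adjusted p 0.8286). The fall of Lyz2 stood against higher levels of most other macrophage genes, described below. Lyz1, a near-identical neighbouring copy, was 8.66, 8.62, 6.20 and 11.7 CPM in knockout livers against 1.22, 0.305, 0.638 and 0.149 CPM in WT livers (log2 difference 3.88 ± 0.82, adjusted p 0.00185; 4.54 without WT library 1). How reads shared by the pair were counted is not given in the sources used here, so both values are uncertain.

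Genes of mitosis made up most of the 12 largest rises. Of 26 tested cell cycle genes 17 rose and none fell, with a median log2 difference of 2.41. Leaving out any 1 library left 17 to 19 higher, and the median stayed between 2.13 and 2.67. Kif20a, a kinesin of the dividing spindle outside the list, had the smallest adjusted p of all genes: it was 26.1, 39.2, 40.0 and 37.8 CPM in knockout livers against 1.52, 1.41, 2.73 and 1.79 CPM in WT livers (log2 difference 4.26 ± 0.27, adjusted p 1.07e-08). Plk1, the polo kinase that starts mitosis, was 13.7, 20.3, 23.7 and 22.1 CPM in knockout livers against 0.895, 0.693, 1.86 and 0.821 CPM in WT livers (log2 difference 4.22 ± 0.32, adjusted p 1.96e-07). Mki67, which encodes the proliferation antigen Ki-67, was 94.7, 140.3, 186 and 191 CPM in knockout livers against 14.4, 7.04, 23.3 and 8.89 CPM in WT livers (log2 difference 3.51 ± 0.42, adjusted p 1.17e-05). For each of these genes the lowest knockout liver exceeded the highest WT liver several-fold.

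The same held for the cyclins and their regulators. The mitotic cyclin Ccnb1 rose by 4.05 ± 0.41 on the log2 scale and its relative Ccnb2 by 4.46 ± 0.46. The kinetochore gene Cenpf rose by 4.42 ± 0.41, and Foxm1, a transcription factor of the G2 phase, by 3.46 ± 0.36. Cdc20, the activator of the anaphase-promoting complex, rose by 3.26 ± 0.34. Outside the list, the cell division regulator Cdca3 rose by 3.82 ± 0.33. The helicase gene Pif1 rose by 5.16 ± 0.48, the kinesin gene Kif14 by 4.46 ± 0.45, the spindle gene Hmmr by 4.30 ± 0.41, Depdc1a by 4.51 ± 0.44 and the phosphatase gene Cdkn3 by 4.26 ± 0.45. All of these had adjusted p-values of 3.86e-06 or less. WT library 3 was the highest WT liver for all of these but Depdc1a, and without it the differences were 4.68 for Ccnb1, 5.11 for Ccnb2, 5.11 for Cenpf, 5.97 for Pif1, 5.14 for Kif14 and 4.90 for Hmmr.

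Most list members of DNA replication and of G1 were not called. Rrm2, the regulated subunit of ribonucleotide reductase, was 71.5, 98.0, 86.5 and 88.6 CPM in knockout livers against 30.4, 13.8, 34.8 and 13.0 CPM in WT livers and was called (log2 difference 1.90 ± 0.47, adjusted p 0.00592). The replication clamp Pcna was 57.8, 63.2, 73.2 and 64.9 CPM in knockout livers against 49.3, 35.2, 53.03 and 26.0 CPM in WT livers, without overlap, and was not called (0.66 ± 0.29, adjusted p 0.0911). It was called with the replicate block (0.94, adjusted p 0.0233) and in a fit of only the compared groups (0.63, adjusted p 0.0435). The helicase subunit Mcm2 overlapped between the groups (0.65 ± 0.37, adjusted p 0.196). Ccnd1, the cyclin of G1, was 190.3, 258, 179.8 and 178 CPM in knockout livers against 393, 298, 279.9 and 198 CPM in WT livers and was not called (-0.53 ± 0.23, adjusted p 0.0819). It was called lower without WT library 4 (-0.71, adjusted p 0.0268) or knockout library 3 (-0.69, adjusted p 0.0443). The cell cycle inhibitor Cdkn1a, a p53 target, fell by 1.55 on the log2 scale (adjusted p 0.00199), and so did Trp53inp1, a p53-induced stress gene, by 1.64 (adjusted p 5.83e-05). Of 16 p53 targets 5 fell and none rose.

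Promoters of 3 mitotic genes that rose are shown with the letters of 2 elements known from G2 and M phase genes, the CCAAT box and the cell cycle homology region TTTGAA. Both strands of the 200 bases before the RefSeq start were searched (GRCm38.p6), and each printed stretch runs 5′ to 3′ on the gene's strand with matches to either motif, or to its reverse complement, in capitals.
Ccnb2, chr9:70421561-70421731, minus strand: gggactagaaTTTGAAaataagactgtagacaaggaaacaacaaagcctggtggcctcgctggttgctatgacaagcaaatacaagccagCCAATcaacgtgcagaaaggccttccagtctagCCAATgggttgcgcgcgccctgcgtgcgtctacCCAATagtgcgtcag
Cdc20, chr4:118437337-118437406, minus strand: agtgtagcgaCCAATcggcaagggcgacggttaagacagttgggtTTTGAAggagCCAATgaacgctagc
Mki67, chr7:135716462-135716577, minus strand: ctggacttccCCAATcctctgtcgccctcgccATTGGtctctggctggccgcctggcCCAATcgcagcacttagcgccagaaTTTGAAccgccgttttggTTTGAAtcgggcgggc
Of the 17 cell cycle genes that rose, 14 had a promoter in the RefSeq table, 12 of them with CCAAT and 5 with TTTGAA. All 5 also held CCAAT. Of 7 cell cycle genes that were not called and had a promoter, the CCAAT box was in 5 and the homology region in 1. Of 19 unfolded protein genes that fell, described next, the CCAAT box was in 15 and the homology region in 0. Among the promoters of all 27025 genes in that table, 32.7% held CCAAT, 14.4% TTTGAA and 4.32% both. Among the 11074 tested genes with a promoter there, the shares were 36.2%, 9.7% and 3.21%. A match is a description of letters and not of binding.

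Genes of the unfolded protein response fell nearly as a whole. This response raises chaperones when misfolded proteins build up in the endoplasmic reticulum, and it shares the factors Atf4 and Ddit3 with the integrated stress response. Of 22 tested genes 21 fell and none rose, with a median log2 difference of -1.57, and leaving out any 1 library left 20 or 21. Hspa5, the main chaperone BiP, was 789.5, 852, 621 and 666 CPM in knockout livers against 2564, 3510.1, 1962 and 2573 CPM in WT livers. The log2 difference was -1.86 ± 0.19 (SE, adjusted p 2.04e-06). Hyou1, a large chaperone of the same compartment, was 149, 158, 116 and 125 CPM in knockout livers against 606, 819, 442 and 583 CPM in WT livers (log2 difference -2.16 ± 0.19, adjusted p 6.79e-07). Creld2 was 21.2, 34.8, 21.7 and 19.4 CPM in knockout livers against 176, 301, 129 and 146 CPM in WT livers (log2 difference -2.95 ± 0.32, adjusted p 4.39e-06). No knockout liver reached the lowest WT liver for any of these.

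The fall extended to folding enzymes, degradation and the apoptotic arm. The disulfide isomerase Pdia4 fell by 1.40 on the log2 scale, the co-chaperone Dnajc3 by 1.28 and Sdf2l1 by 2.12. Ero1lb, a disulfide oxidase outside the list, fell by 1.66 with one of the smallest adjusted p-values of all genes (3.03e-07). Herpud1, which acts in degradation of misfolded proteins, fell by 1.73 (adjusted p 1.05e-05). Ddit3, the factor CHOP, was 5.38, 11.9, 6.52 and 6.59 CPM in knockout livers against 26.6, 33.3, 31.2 and 48.8 CPM in WT livers (log2 difference -2.19 ± 0.30, adjusted p 3.91e-05). Its target Trib3 fell by 2.78, or by 1.95 without WT library 4, and the stress hormone gene Fgf21 fell by 5.26, or by 4.18 without that library. Both still passed the test (adjusted p 0.000207 and 0.000147). The exception was Xbp1, whose messenger is activated by splicing that gene counts do not show: it was 261, 175, 204 and 219 CPM in knockout livers against 209, 265, 198 and 184 CPM in WT livers (adjusted p 0.985).

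Promoters of 3 of these genes are shown for the endoplasmic reticulum stress element, searched as CCAAT, 9 bases of any kind and CCACG in the same 200 bases and on both strands; it contains the CCAAT searched above. Capitals mark the fixed letters.
Hspa5, chr2:34772015-34772053, plus strand: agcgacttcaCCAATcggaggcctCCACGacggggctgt
Creld2, chr15:88819510-88819548, plus strand, element on the opposite strand: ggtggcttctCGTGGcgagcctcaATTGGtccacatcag
Dnajc3, chr14:118937817-118937855, plus strand: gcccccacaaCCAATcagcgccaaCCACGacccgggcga
Of the 21 genes that fell 19 had a promoter in the table, and 6 of these held the full element (Calr, Creld2, Dnajc3, Hsp90b1, Hspa5 and Pdia6). It was present in 0.118% of all 27025 genes and in 0.144% of the 11074 tested genes with a promoter.

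Heat shock genes, the cytosolic counterpart, also fell: 11 of 15 were lower and none higher, with a median log2 difference of -0.71. Hspb1, the small heat shock protein HSP25, was 2.52, 3.33, 4.43 and 4.12 CPM in knockout livers against 38.6, 93.5, 42.9 and 29.8 CPM in WT livers (log2 difference -3.83 ± 0.45, adjusted p 1.06e-05). The inducible Hspa1b was 2.40, 9.45, 3.26 and 2.81 CPM in knockout livers against 31.5, 75.9, 23.9 and 18.1 CPM in WT livers (-3.05 ± 0.62, adjusted p 0.00165). Its difference was -2.44 without WT library 2 and -3.73 without knockout library 3, the extreme library of each group. Hsph1, a nucleotide exchange factor, fell by 2.06 (adjusted p 5.27e-06) and the constitutive Hspa8 by 0.77 (adjusted p 0.0027). Stress-induced early genes were lower as well, with 7 of 20 immediate early factors down and none up. Atf3 was 9.21, 11.8, 6.96 and 7.65 CPM in knockout livers against 25.4, 43.2, 24.4 and 25.6 CPM in WT livers (log2 difference -1.73 ± 0.25, adjusted p 5.67e-05), and Dusp1, a phosphatase that ends MAP kinase signals, fell by 2.03 (adjusted p 0.0141).

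Scar matrix genes rose. Of 30 collagen and matrix genes 19 were higher and 1 lower, with a median log2 difference of 0.85, and 16 to 19 were higher with any 1 library left out. Col1a1, the main fibrillar collagen of scar, was 408, 387, 596 and 632 CPM in knockout livers against 139, 139, 209 and 87.4 CPM in WT livers (log2 difference 1.82 ± 0.45, adjusted p 0.00566). Col3a1 was 520.0, 591, 696 and 785 CPM in knockout livers against 202, 183, 265 and 112 CPM in WT livers (1.77 ± 0.31, adjusted p 0.00031). In WT, library 4 was the lowest liver for both. Col1a2 rose by 1.59 ± 0.42, the basement membrane collagen Col4a2 by 1.21 ± 0.20 and the microfibrillar Col6a3 by 1.51 ± 0.22. The collagen crosslinking enzyme Lox rose by 1.54 ± 0.38 (adjusted p 0.0054) and the matrix glycoprotein Sparc by 1.06 ± 0.22 (adjusted p 0.0015). Fibronectin (Fn1), which hepatocytes also make, was not called (0.18 ± 0.22, adjusted p 0.59).

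The member that fell was Thbs1, an activator of TGF-beta, with 9.36, 8.06, 10.4 and 14.997 CPM in knockout livers against 21.5, 75.2, 20.2 and 8.63 CPM in WT livers. Its ranges overlapped, and its call (log2 difference -1.56 ± 0.47, adjusted p 0.0186) was lost without WT library 2 (-0.67, adjusted p 0.158), without knockout library 3 (adjusted p 0.0514), with the replicate block (-1.18, adjusted p 0.0876) and in a fit of only the compared groups (-1.59, adjusted p 0.0507). Of 20 genes of activated stellate cells and myofibroblasts 4 were higher and none lower, with a median of 0.55. The share called in either direction, 20%, was below the 28.8% of all tested genes. The share called higher, also 20%, was above the 15.8% of all tested genes. Acta2, smooth muscle actin, was 29.5, 13.9, 60.5 and 57.9 CPM in knockout livers against 28.3, 40.8, 23.0 and 11.02 CPM in WT livers and was not called (0.65 ± 0.46, adjusted p 0.313). Timp1, an inhibitor of matrix proteases, was likewise not called (-0.36 ± 0.65, adjusted p 0.717). The integrin gene Itga8 rose by 1.33 ± 0.23, the galectin gene Lgals1 by 1.23 ± 0.27 and the PDGF receptor Pdgfra by 0.92 ± 0.24. Of 15 genes of resting stellate cells 4 were higher, 1 lower and 10 not called (33.3% called), with a median of 0.22. Pparg rose by 1.45 ± 0.26 and Ngfr by 1.11 ± 0.26. That list had 2 higher without WT library 2 or knockout library 5, and 2 lower without WT library 2. The 5 stellate markers Lrat, Reln, Des, Pdgfrb and Acta2 summed to 151 to 218 CPM in knockout livers and 124 to 252 CPM in WT livers, 1 of them called higher, and their part in the rise of collagens was not tested.

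TGF-beta genes were split, with 6 of 19 higher and 3 lower; the number lower was 1 without WT library 2 or without knockout library 1. The ligand Tgfb1 was 24.8, 26.8, 36.8 and 31.7 CPM in knockout livers against 15.3, 16.5, 15.02 and 13.8 CPM in WT livers (0.99 ± 0.17, adjusted p 0.000247). The inhibitory Smad6 rose by 0.96 ± 0.16 (adjusted p 0.000236). The response gene Ctgf was 5.35, 12.02, 15.9 and 13.6 CPM in knockout livers against 21.1, 46.3, 28.2 and 21.3 CPM in WT livers (-1.32 ± 0.36, adjusted p 0.0101). Among 20 matrix proteases and inhibitors 6 rose and 1 fell; 3 rose without knockout library 5 and 2 fell without WT library 4. Plau, the urokinase plasminogen activator, rose by 1.31 ± 0.32 (adjusted p 0.00436).

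Kupffer cells are the resident macrophages of the liver sinusoid. Of 14 genes that mark them 9 rose and none fell, with a median log2 difference of 1.18, and 9 or 10 rose with any 1 library left out. Cd5l, a secreted scavenger protein, was 422, 514, 397 and 380.1 CPM in knockout livers against 160.5, 117, 120.5 and 106 CPM in WT livers (log2 difference 1.76 ± 0.22, adjusted p 9.98e-06). The complement receptor Vsig4 was 76.9, 78.0, 70.4 and 73.4 CPM in knockout livers against 36.3, 22.2, 25.1 and 25.2 CPM in WT livers (1.46 ± 0.19, adjusted p 2.03e-05). The haemoglobin scavenger receptor Cd163 rose by 1.62 ± 0.20, the lectin Clec4f by 1.01 ± 0.18 and the phosphatidylserine receptor Timd4 by 1.19 ± 0.24. The 5 markers Clec4f, Vsig4, Timd4, Cd5l and Marco summed to 953 to 1000 CPM in knockout livers against 337 to 472 CPM in WT livers. All but Marco (adjusted p 0.0661) were called higher.

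Genes shared by macrophages rose with them. The growth factor receptor Csf1r was 218, 227, 172 and 173 CPM in knockout livers against 91.9, 70.0, 70.4 and 52.9 CPM in WT livers (1.47 ± 0.25, adjusted p 0.000221). The pore-forming Mpeg1 rose by 1.23 ± 0.19, and C1qa, a complement subunit made by macrophages, by 1.44 ± 0.21. Of 18 genes of infiltrating and scar-associated macrophages 8 rose and 1, Lyz2, fell; 5 rose without WT library 4. The fractalkine receptor Cx3cr1 was 11.7, 11.1, 13.9 and 16.2 CPM in knockout livers against 6.89, 7.15, 6.87 and 3.02 CPM in WT livers (1.14 ± 0.28, adjusted p 0.00432). Ccr2, the receptor that draws monocytes out of marrow, rose by 1.07 ± 0.33 (adjusted p 0.0211), a call lost without WT library 4 (adjusted p 0.0699) or knockout library 5 (0.0531). The lipid chaperone Fabp5 rose by 1.58 ± 0.28. The 5 markers of infiltrating cells summed to 114 to 171 CPM in knockout livers and 66.1 to 95.2 CPM in WT livers, with 3 called higher.

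Other immune lists rose in part. Antigen presentation by MHC class II rose in 8 of 10 genes with a median of 1.02, among them H2-Ab1 by 1.07 ± 0.20, the invariant chain Cd74 by 0.66 ± 0.17 and the processing protease Ctss by 1.27 ± 0.17. Of 17 T and NK cell genes 6 rose and none fell; Cd4, which some macrophages also carry, was 1.61, 2.11, 2.23 and 2.25 CPM in knockout livers against 0.624, 0.831, 0.696 and 0.411 CPM in WT livers (1.66 ± 0.25) and the cytotoxic protease Gzmb rose by 1.73 ± 0.42. Among 25 cytokines and chemokines 10 rose and 2 fell, or 1 fell without any of WT libraries 1 and 2 and knockout libraries 1, 3 and 4. Il1a rose by 1.48 ± 0.21 and Cxcl16, a chemokine for T cells, by 1.01 ± 0.18; the eosinophil chemokine Ccl24 fell by 2.52, with 0.17 to 0.406 CPM in knockout livers against 1.16 to 2.38 CPM in WT livers. Interferon-stimulated genes rose in 11 of 23, but in 7 without WT library 1 or 3 and in 6 without WT library 4. Ifit2 rose by 1.56 ± 0.18 and the GTPase Gbp3 by 1.34 ± 0.23.

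Neutrophil genes gave 2 higher and 1 lower of 13: the receptor Csf3r rose by 0.82 ± 0.22, the granule peptide Camp was 0.334, 0.51, 0.235 and 0.375 CPM in knockout livers against 0.976, 0.554, 1.97 and 1.38 CPM in WT livers (-1.72 ± 0.41), and S100a8 was not called (adjusted p 0.626). The number higher was 1 without WT library 2 or knockout library 5, and the number lower was 2 without WT library 1 or knockout library 1. Sinusoidal endothelial genes rose in 12 of 17 with none lower and a median of 0.61. The scavenger receptor Stab2 was 51.1, 41.7, 46.7 and 47.4 CPM in knockout livers against 27.3, 21.6, 21.3 and 20.99 CPM in WT livers (1.03 ± 0.12, adjusted p 4.54e-06). The VEGF receptor Kdr rose by 0.78 ± 0.18 and the fatty acid transporter Cd36, which other liver cells also make, by 1.08 ± 0.23. The 5 endothelial markers summed to 104 to 132 CPM in knockout livers against 69.6 to 83.5 CPM in WT livers, with 3 called higher. Ductular genes went down, 5 of 12, but 3 without any of WT library 2 and knockout libraries 1, 3 and 4. They include the keratins Krt8, at 259, 325, 275 and 263 CPM in knockout livers against 611, 885, 471 and 368 CPM in WT livers (-1.06 ± 0.22), and Krt18 (-0.88 ± 0.21), which hepatocytes make as well. The 5 ductular markers Krt7, Krt19, Epcam, Cftr and Sox9 summed to 13.2 to 20 CPM in knockout livers and 23.4 to 41.9 CPM in WT livers. Of the 4 that were tested 2, Epcam and Sox9, were called lower.

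**Figure D3:**
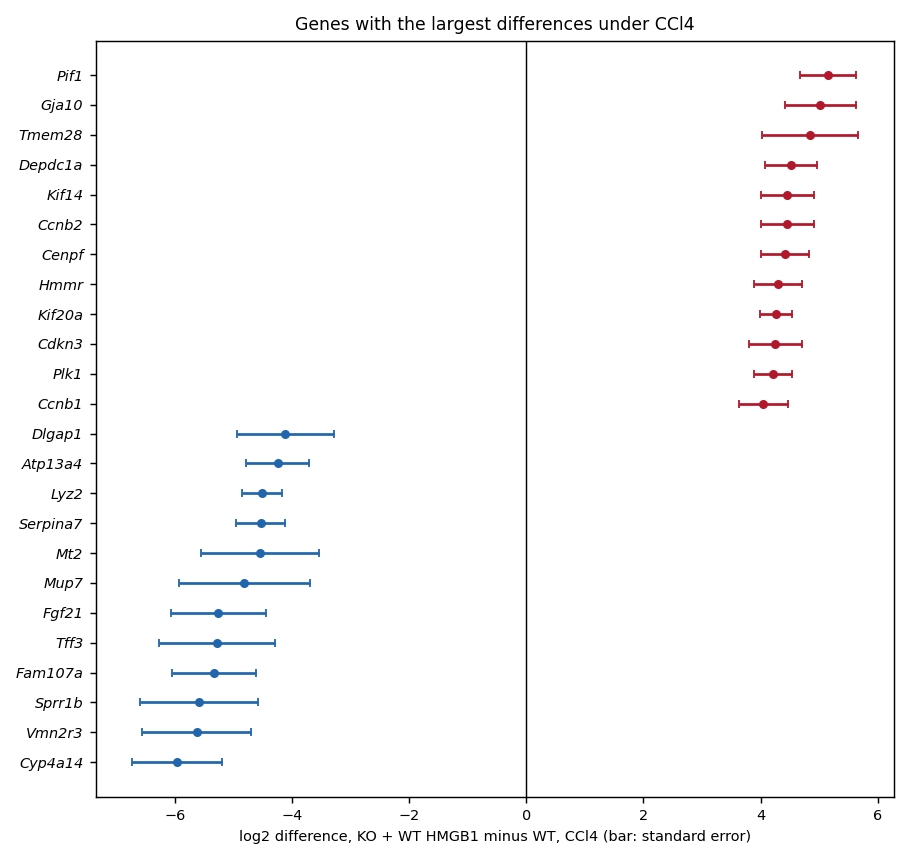
Log2 difference of knockout livers with WT HMGB1 over WT livers under CCl4 for the genes with the 12 largest rises and 12 largest falls among called genes of at least 1 mean CPM without overlap; bars are standard errors. Mitotic genes make up most of the rises, and Cyp4a14, at -5.96, is the largest fall.

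In hepatocyte metabolism, some targets of PPAR-alpha, the nuclear receptor of fasting and fatty acid oxidation, fell far. Cyp4a14, a fatty acid hydroxylase, was 7.17, 11.4, 5.37 and 5.97 CPM in knockout livers against 344, 326, 141 and 1062 CPM in WT livers (log2 difference -5.96 ± 0.77, adjusted p 3.52e-05; -5.19 without WT library 4). Its near relative Cyp4a10 was 30.8, 34.5, 25.7 and 23.2 CPM in knockout livers against 419.6, 422, 153 and 799.8 CPM in WT livers (-3.97 ± 0.50, adjusted p 2.05e-05). Reads shared within this gene family could have been counted for either member. Angptl4, an inhibitor of lipoprotein lipase, fell by 1.69 (adjusted p 0.00275). The list as a whole was mixed, with 5 of 25 lower and 3 higher, the higher count being 0 without WT library 1, WT library 2 or knockout library 1 and 1 without knockout library 5.

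Lipogenic genes rose in 11 of 21 with none lower and a median of 0.81, but in 7 without WT library 2 or 4 and in 3 without knockout library 1. Knockout library 1 had the highest Fasn, Pnpla3, Scd2 and Acacb of all 8 livers. Fasn, fatty acid synthase, was 1869, 715, 518 and 760.1 CPM in knockout livers against 590.1, 454, 296 and 226 CPM in WT livers (1.30 ± 0.39, adjusted p 0.018; 0.115 without knockout library 1, 0.0523 without WT library 3 and 0.0663 without WT library 4). Pnpla3, a lipase of lipid droplets, rose by 2.19 ± 0.59 (adjusted p 0.00976), against 1.37 (0.0539) without knockout library 1 and 2.97 without WT library 1. The desaturase Scd2 rose by 1.82 ± 0.25 (adjusted p 3.8e-05) and Acacb, an acetyl-CoA carboxylase, by 1.59 ± 0.37 (adjusted p 0.00345), and both calls held without any 1 library. Cholesterol synthesis had 6 of 24 lower and 1 higher. The lower count was 3 without WT library 1 or knockout library 4 and 10 without WT library 4. Sqle, squalene epoxidase, fell by 0.80 (adjusted p 0.0167), a call lost without WT library 1 (0.0517) or knockout library 4 (0.0653) or 5 (0.0639). Sc5d, a late sterol desaturase, was the one that rose (0.81 ± 0.21, adjusted p 0.00765).

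Single cytochrome P450 genes fell, while zonal genes as lists stood near the background of 15.8% higher and 13% lower. Cyp2a5 was 12.004, 34.4, 17.3 and 19.2 CPM in knockout livers against 55.2, 96.2, 106 and 674 CPM in WT livers, with WT library 4 far above the rest (-3.49 ± 0.67, adjusted p 0.000937; -2.07 without it). Cyp2c29 fell by 1.14 (adjusted p 0.00236). Cyp1a2 fell by 0.89 (adjusted p 0.0238), a call lost without WT library 1 (0.0663), WT library 4 (0.0767) or knockout library 1 (0.0707). Glul, the pericentral glutamine synthetase, was 84.3, 91.4, 84.5 and 89.1 CPM in knockout livers against 45.8, 39.2, 53.9 and 82.7 CPM in WT livers (0.66 ± 0.19, adjusted p 0.0142; 0.0565 without WT library 2). Of 21 pericentral genes 4 rose and 3 fell, and the higher count was 2 without WT library 1, WT library 2 or knockout library 3. The gluconeogenic enzyme Pck1 was 410.5, 1133, 1277 and 905 CPM in knockout livers against 2409, 2096, 4346 and 3654 CPM in WT livers (-1.75 ± 0.43, adjusted p 0.00501). Albumin (Alb) was not called (-0.39 ± 0.16, adjusted p 0.0759), but passed with the replicate block (-0.43, 0.0497), without WT library 2 (-0.50, 0.0226) and without the Xist-holding libraries (-0.39, 0.043). It also passed in DESeq2's Wald test (-0.40, adjusted p 0.00732).

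Several transport, hormone and detoxification genes had large falls, some of which were also called under MO (below). Male-biased Mup7 was 4.44, 2.87, 2.26 and 3.94 CPM in knockout livers against 159, 169.8, 22.3 and 29.9 CPM in WT livers (-4.82 ± 1.12, adjusted p 0.00406), within a multigene family whose reads are hard to assign. The bile acid and hormone transporter Slco1a1 fell by 3.45 (adjusted p 0.0155; by 4.24 without knockout library 3). The hepatokine Igfbp1 was 34.4, 103, 69.2 and 56.0 CPM in knockout livers against 345, 543, 578 and 894 CPM in WT livers (-3.17 ± 0.53, adjusted p 0.000315). Of 24 growth hormone dependent and sex-biased genes 6 fell and none rose, with a median of -0.81; 11 fell when the libraries with Xist were left out of the fit. The bile acid exporter subunit Slc51b was 2.61, 1.02, 2.20 and 2.97 CPM in knockout livers against 0.678, 0.277, 0.174 and 0.448 CPM in WT livers (2.46 ± 0.40). Sult1e1, the oestrogen sulfotransferase, rose by 2.93 ± 0.75 (adjusted p 0.00791) and its relative Sult1a1 fell by 1.73 (adjusted p 0.000168).

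Several metal and redox genes fell. The metallothionein Mt1 was 9.75, 24.9, 31.5 and 25.7 CPM in knockout livers against 107, 219, 407 and 517 CPM in WT livers (-3.77 ± 0.88, adjusted p 0.00429). Mt2 was 4.16, 15.8, 12.5 and 8.03 CPM in knockout livers against 81.7, 197, 354 and 322 CPM in WT livers (-4.56 ± 1.01, adjusted p 0.00297). Slc7a11, the cystine importer for glutathione synthesis, was 1.58, 2.02, 1.35 and 1.5 CPM in knockout livers against 11.1, 19.7, 13.3 and 14.3 CPM in WT livers (-3.17 ± 0.37, adjusted p 7.56e-06). Of 22 antioxidant and NRF2 target genes 6 fell and 2 rose. Among them the glutathione transferase Gsta2 fell by 1.92 (adjusted p 0.000928), and Hmox1, the haem-degrading enzyme that macrophages also make, was 73.7, 79.2, 82.1 and 72.0 CPM in knockout livers against 41.4, 34.8, 38.4 and 32.8 CPM in WT livers (1.06 ± 0.16, adjusted p 7.97e-05). The other gene that rose was Txnrd1, and the higher count was 1 without WT library 1 or 3 or without knockout library 1 or 3. Acute phase genes hardly moved: 1 of 20, the pentraxin Apcs, fell (by 1.09, adjusted p 0.00134), and 3 fell without WT library 1.

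Clock genes were shifted in a set of 20, 6 lower and 2 higher (40% called, against 28.8% of all tested genes). The repressor Cry1 was 8.27, 8.23, 5.40 and 6.00 CPM in knockout livers against 15.4, 20.3, 18.7 and 26.1 CPM in WT livers (-1.53 ± 0.23, adjusted p 6.96e-05). Cry2 fell by 0.90 and Per1 by 1.40. Nr1d1, the repressor REV-ERB-alpha, was 48.8, 64.6, 117 and 95.8 CPM in knockout livers against 35.5, 26.4, 24.2 and 25.9 CPM in WT livers (1.54 ± 0.28, adjusted p 0.000458), and Npas2, a partner of Bmal1, rose by 2.04 ± 0.53 (adjusted p 0.00681). Under MO 12 of the 20 were lower and 2 higher. The interaction called 5 with a higher and 1 with a lower genotype effect under CCl4 than under MO. These counts were the same without the libraries with Xist. Without those libraries the MO differences were -2.26 for Cry1, -1.06 for Cry2, -2.635 for Per1, 2.64 for Nr1d1 and 5.51 for Npas2, all called. The hour of sampling is not in the labels, so time of day and genotype cannot be told apart for these genes.

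The remaining genes with the largest changes have no single theme. Serpina7, which carries thyroid hormone in blood, was 4.71, 9.86, 4.32 and 4.78 CPM in knockout livers against 102, 141, 74.8 and 235 CPM in WT livers (-4.54 ± 0.42, adjusted p 1.52e-06). Kyat3, an enzyme of kynurenine metabolism, was 84.2, 75.4, 65.3 and 56.9 CPM in knockout livers against 271, 229.6, 269.9 and 273 CPM in WT livers (-1.89 ± 0.15, adjusted p 2.53e-07). Fam107a fell by 5.33, with 0.0625 to 0.122 CPM in knockout livers against 1.14 to 7.58 CPM in WT livers. The trefoil factor Tff3 fell by 5.28 (by 3.98 without WT library 3). Vmn2r3 fell by 5.63 (by 4.18 without WT library 4), Sprr1b by 5.60 (by 4.10 without WT library 2), Atp13a4 by 4.25 (by 3.52 without WT library 2) and Dlgap1 by 4.12. In knockout livers the last 4 of these stayed under 0.5 CPM. Vmn2r3, Sprr1b and Atp13a4 had no count in any of the 6 MO livers. Gja10, a connexin, rose and lay at 0.781 to 1.26 CPM in knockout livers against 0 to 0.0542 CPM in WT livers. Tmem28, an X-linked gene, rose and lay at 1.43 to 5.17 CPM in knockout livers against 0.0542 to 0.194 CPM in WT livers. Gpsm2, which orients the mitotic spindle, rose by 1.13 ± 0.09 with a small spread (adjusted p 2.67e-07). Several of these genes were called the same way under MO without the libraries with Xist. The MO differences were -8.01 for Fam107a, -3.27 for Tff3, -0.59 for Kyat3, 5.77 for Gja10, 2.11 for Tmem28 and 0.79 for Gpsm2. Gja10 was low there, at 0.103 to 0.231 CPM in knockout livers and 0 in WT livers. Dlgap1 was not called (-2.41), and Serpina7 rose (2.02).

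The genotype difference was then set beside that of the MO livers. There 3423 of 14129 genes (24.2%) were called, 1801 higher (12.7%) and 1622 lower (11.5%) in knockout livers. With upper quartile scaling, which moved the median log2 difference of all genes from 0.0275 to 0.131, 66.7% of calls were higher instead of 52.6%. Of the 4069 genes called under CCl4, 1160 (28.5%) were called the same way under MO, which is 33.9% of the genes called under MO; 153 were called the opposite way and 2756 were not called. In the same direction, 635 of 2230 higher genes (28.5%) were also higher under MO, against 12.7% of all genes, and 525 of 1839 lower genes (28.5%) were also lower, against 11.5%. The interaction called 1906 genes (13.5%), 968 with a higher (6.85%) and 938 with a lower effect under CCl4 (6.64%). That count was 1233 without WT library 1 of MO, 1213 without WT library 2 of MO and 1263 without knockout library 2 of MO. Without the libraries with Xist the calls were 4549 under CCl4, 3524 under MO and 2533 in the interaction, and 1007 genes (24.8% of those called under CCl4) were called the same way under both.

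Besides Lyz2, the genes called the same way under both treatments with the strongest evidence were Zbtb16, Slc25a33, Tmc7, Ivns1abp and Lpin1, which were lower, and Samd9l, Smo, Fn3krp and Exoc3l4, which were higher. Zbtb16, a transcriptional repressor that glucocorticoids induce, was 8.90, 6.92, 9.89 and 9.03 CPM in knockout livers against 61.2, 73.1, 94.5 and 139.7 CPM in WT livers under CCl4. Under MO it was 3.78, 6.36 and 8.38 CPM in knockout livers and 119, 89.3 and 80.5 CPM in WT livers. The log2 differences were -3.41 ± 0.28 and -3.96 ± 0.34. The mitochondrial carrier Slc25a33 fell by 1.70 under CCl4 and 2.00 under MO, Tmc7 by 2.49 and 2.83, and Ivns1abp by 1.22 and 1.79. Lpin1, a phosphatidate phosphatase, fell by 2.81 under CCl4 and by 4.85 under MO, a difference that passed the interaction test (2.03 ± 0.47, adjusted p 0.00808). Smo, the transducer of Hedgehog signals, rose by 1.34 under CCl4 and 1.30 under MO, Samd9l by 1.18 and 1.86, Fn3krp by 0.89 and 1.08, and Exoc3l4 by 1.69 and 2.72. Several other falls given above were also called under MO without the libraries with Xist. The MO differences were then -3.99 for Mup7, -3.13 for Igfbp1, -3.07 for Mt1 and -4.20 for Mt2. Those of Pck1, Angptl4, Slco1a1 and Cdkn1a were -2.07, -3.35, -2.61 and -2.77. None of these passed the interaction in that fit. Cyp4a14, Cyp4a10, Cyp2a5 and Slc7a11 were not called under MO in that fit, and Gsta2 rose (1.38).

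**Figure D4:**
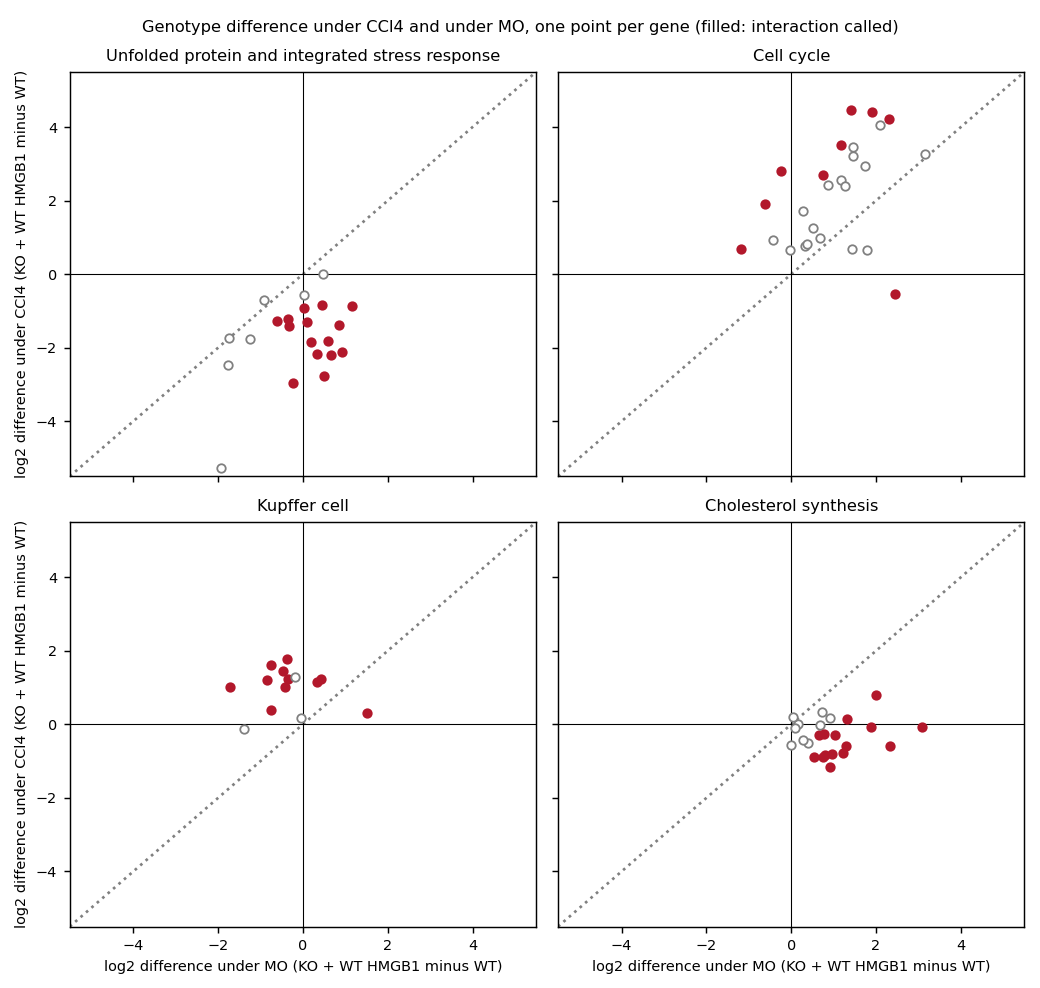
Log2 difference of knockout livers with WT HMGB1 over WT livers under CCl4 (vertical) and under MO (horizontal) for members of 4 gene lists; 1 point is 1 gene, filled where the interaction was called, and the dotted line marks equal differences. Unfolded protein genes other than Xbp1 lie below 0 under CCl4 and on both sides of 0 under MO, and cholesterol synthesis genes other than Tm7sf2 lie to the right of the dotted line.

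Other effects depended on the treatment. The genotype effect on St3gal5, a ganglioside synthase, was -1.002 ± 0.14 under CCl4 and -3.79 ± 0.18 under MO (interaction 2.79 ± 0.22, adjusted p 6.49e-07). Pter fell by 0.59 under CCl4 and rose by 1.92 under MO. The cysteinyl-tRNA synthetase Cars fell by 0.31 under CCl4, a call lost without WT library 2 (adjusted p 0.0595), and rose by 1.37 under MO. The centriolar gene Cntrl rose by 1.16 under CCl4 and fell by 1.09 under MO. Serpina7 was 64.8, 32.5 and 59.2 CPM in knockout livers against 13.0, 10.7 and 12.3 CPM in WT livers under MO, the opposite order to that under CCl4 (interaction -6.66 ± 0.61, adjusted p 5.99e-06).

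Among the lists, the unfolded protein response was 3 higher and 4 lower of 22 under MO (5 and 4 without the libraries with Xist). The interaction called 15 genes with a lower genotype effect under CCl4 than under MO and none with a higher one. Without those libraries it called 16 and none. Hspa5 was 939, 1319 and 771 CPM in knockout livers and 899, 761 and 989 CPM in WT livers under MO, so that all 4 WT livers under CCl4 lay above every liver of the other groups compared. Pdia4 fell under CCl4 and rose under MO (0.85, interaction adjusted p 7.77e-06). Heat shock genes, unlike these, were also lower under MO, 7 of 15 with none higher (6 without the libraries with Xist). The interaction called only 1 of them, Hspb1, with a lower effect under CCl4 than under MO (also 1 without those libraries). Kupffer cell genes were 1 higher and 4 lower of 14 under MO (1 and 5 without the libraries with Xist). The interaction called 10 with a higher and 1 with a lower effect under CCl4 than under MO (also 10 and 1 without those libraries). Cd5l was 144, 112 and 172 CPM in knockout livers and 197, 168 and 187 CPM in WT livers under MO. Cell cycle genes were 6 higher and none lower of 26 under MO with a median of 1.17 (7 and none without the libraries with Xist). In that list 8 passed the interaction with a higher effect under CCl4 and 1, Ccnd1, with a lower one (5 and 1 without those libraries). Ccnd1 under MO was 119.9, 97.6 and 154 CPM in knockout livers against 26.9, 21.8 and 19.5 CPM in WT livers, a rise of 2.44 ± 0.28.

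Cholesterol synthesis was 15 higher and none lower of 24 under MO (12 and none without the libraries with Xist). The interaction called 15 with a lower effect under CCl4 than under MO (12 without those libraries). Under CCl4 itself 6 were called lower and 1 higher. Neutrophil genes were 10 higher of 13 under MO with a median of 2.56 (9 higher without the libraries with Xist). The interaction called 9 with a lower effect under CCl4 than under MO (also 9 without those libraries). Under CCl4 itself 1 was called lower and 2 higher. S100a8, a calprotectin subunit, was 20.7, 18.3 and 25.3 CPM in knockout livers against 3.25, 2.51 and 3.23 CPM in WT livers under MO. The 5 neutrophil markers summed under MO to 48.2 to 69.4 CPM in knockout livers and 7.27 to 10.3 CPM in WT livers, and under CCl4 to 13.8 to 19.8 CPM and 13.3 to 28.4 CPM. Interferon-stimulated genes were 17 higher of 23 under MO (16 without the libraries with Xist) and MHC class II genes 8 of 10 (7 without them). Krt8 and Krt18, lower under CCl4, were higher under MO (1.09 and 1.69). Collagen and matrix genes were 5 higher and none lower of 30 under MO, median 0.61 (6 and 1 without the libraries with Xist). The interaction called 1 with a higher and 2 with a lower effect under CCl4 (4 and 1 without those libraries). Of 17 sinusoidal endothelial genes 2 were higher and none lower under MO. There the interaction called 2 with a higher and 1 with a lower effect under CCl4. These endothelial counts were the same without those libraries.

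Calls were also counted around 3 loci. Within 10 Mb of Hmgb1, 23 genes were higher and 16 lower of 118 tested (33.1%). Within 10 Mb of Lyz2 the share called was 24.4% of 86 and within 10 Mb of Alb 29.4% of 85, against 28.8% of all genes. Within 1 Mb the shares were 6 of 12 (50%) for Hmgb1, 5 of 15 (33.3%) for Lyz2 and 1 of 19 (5.26%) for Alb. With all libraries kept, 4, 1 and 0 of these called genes were called the same way under MO. Among those near Hmgb1 was the heat shock gene Hsph1, 0.564 Mb away, which fell by 2.06 under CCl4 and 1.22 under MO. The windows of 1 Mb hold few genes, and no share was tested.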

How the data were processed

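Liver RNA was sequenced from TruSeq Stranded mRNA libraries, per the labels' protocols. The authors deposited whole-number read counts per gene; the genome build was mm10, per the submitters' processing notes, while aligner, counter, annotation and use of strand were not given in the sources used here. Antisense, overlapping and near-identical genes are therefore uncertain. The rows for reads outside genes (5.5 to 6.62% of counts in knockout CCl4 livers, 6.25 to 7.38% in WT) and for ambiguous reads (0.658 to 0.719% against 0.579 to 0.635%) were left out of library sizes and tests.

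Counts of all 21 libraries of the table were fitted in 1 edgeR 4.0.16 quasi-likelihood model with 6 groups (R 4.3.3, limma 3.58.1, robust, TMM; genes passing filterByExpr with a minimum count of 10 and total of 15), with Benjamini-Hochberg adjustment and a threshold of 0.05. SE is the size of the log2 difference divided by the square root of F. The contrasts tested were the genotypes under CCl4, under MO, and their difference. Alternatives were DESeq2 1.42.0, other scalings, no filter, only the compared groups, no robust step, a replicate block and leaving out each library; leaving out the libraries with Xist was added after seeing the data. The scripts were tested on simulated data.

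Groups and replicate numbers came from the labels. Deviations of same-numbered CCl4 livers correlated at 0.175, 0.116 and 0.313 for numbers 1, 3 and 4, each above 0.1. Differently numbered livers ranged from -0.287 to 0.184, which overlaps with these values, so the correlations do not establish pairs. No label states a shared litter, batch or day. The main tests used no pairing, and the replicate block was run only as an alternative. Same-group libraries differed beyond sampling noise in every pair (lowest chi-square per degree of freedom 11.5).

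The genes named were the 12 largest rises and 12 largest falls among called genes of at least 1 mean CPM without overlap, the 8 smallest adjusted p-values, the 10 genes with the strongest same-way calls under both treatments, the 6 smallest adjusted p-values of the interaction, called members of 43 gene lists, members on which a statement about a list turns, and Hmgb1, its relatives, lysozymes and albumin. The members and lists were chosen with earlier results of these data known. Promoters came from RefSeq (GRCm38.p6).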

Additional observations from a re-analysis of the deposited data

Results flagged for a closer look

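Among 308 sets of 4 livers, each 1 gene in 1 CCl4 group, 25 held a liver farther from its neighbours than Dixon's 95% limit for 4 values; chance flags about 1 in 20. In knockout livers, library 1 was the low one for Kif20a (26.1 CPM) and Cdca3 (25.2 CPM) and the high one for Pnpla3 (61.7 CPM) and Acacb (252.2 CPM). Knockout library 3 was the outlying liver for Ccnd1 (258.5 CPM), Trp53inp1 (145.4 CPM), Creld2 (34.8 CPM), Hspa1b (9.45 CPM), Cd163 (41.2 CPM) and Serpina7 (9.86 CPM). In WT livers, library 4 stood apart for Cdkn1a (170.7 CPM), Herpud1 (1338 CPM), Trib3 (81.4 CPM), Col6a3 (26.5 CPM), Cx3cr1 (3.02 CPM), Cyp2a5 (674 CPM) and Vmn2r3 (17.5 CPM). WT library 3 stood apart for Ccnb2 (2.17 CPM), Foxm1 (3.68 CPM) and Tff3 (37.9 CPM), WT library 2 for Tlr9 (0.776 CPM), Kyat3 (229.6 CPM), Atf3 (43.2 CPM) and Sprr1b (6.57 CPM), and WT library 1 for Stab2 (27.3 CPM).

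For 56 named genes the genotype effect under CCl4 differed from that under MO by the interaction test (edgeR, adjusted p under 0.05); 52 stayed called without the libraries with Xist. The values here are log2 differences of the effects, CCl4 minus MO. Genes of division and HMGB genes gave 1.68 for Hmgb2, 1.91 for Plk1, 2.53 for Kif20a, 2.45 for Cdca3, 3.05 for Ccnb2, 2.52 for Cenpf, 2.34 for Mki67, 2.52 for Rrm2, -2.98 for Ccnd1 and 1.11 for Tlr4. Stress genes gave -2.05 for Hspa5, -2.49 for Hyou1, -2.25 for Pdia4, -0.66 for Dnajc3, -2.71 for Creld2, -3.03 for Sdf2l1, -2.85 for Ddit3, -3.28 for Trib3, -0.97 for Ero1lb, -3.98 for Hspb1 and -2.55 for Atf3. Stellate, macrophage and other immune or endothelial genes gave -3.03 for Thbs1, -1.35 for Ngfr, 2.13 for Cd5l, 1.93 for Vsig4, 2.37 for Cd163, 1.45 for Clec4f, 2.04 for Timd4, 1.58 for Csf1r, 1.41 for C1qa, -4.77 for Camp, -3.04 for S100a8, 1.40 for Ctss, 2.68 for Cd4, 1.01 for Stab2 and -1.65 for Cd36. Metabolic and secreted genes gave -4.90 for Cyp4a14, -2.46 for Cyp4a10, 2.03 for Acacb, -1.76 for Sqle, -1.18 for Sc5d, 1.54 for Glul, -1.36 for Kyat3, -6.66 for Serpina7, -2.93 for Gsta2, 0.89 for Hmox1, -1.52 for Apcs and -3.69 for Npas2. The others were -2.14 for Krt8, -2.57 for Krt18, -0.68 for Samd9l, 2.03 for Lpin1, 2.79 for St3gal5, -2.52 for Pter, -1.68 for Cars and 2.24 for Cntrl. Without the libraries with Xist the calls of Plk1 (1.78, adjusted p 0.0739), Rrm2 (2.35, 0.0538), Thbs1 (-2.51, 0.0609) and Ngfr (-0.88, 0.141) were lost. Leaving out WT library 3 of CCl4 gave 3.69 for Ccnb2 and 3.21 for Cenpf, leaving out WT library 4 gave -2.48 for Trib3 and -4.17 for Cyp4a14, and leaving out WT library 2 gave -2.14 for Thbs1.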

How the results depend on the processing

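The number of genes called under CCl4 was 3168 (without knockout library 5) to 3783 (without knockout library 3) when 1 library was left out, and 3813 to 4549 under the other alternatives, against 4069. The number called under MO was 2320 (without WT library 2) to 3467 (without knockout library 3), and that of the interaction 1213 (without WT library 2 of MO) to 2480 (without knockout library 3 of MO). Upper quartile scaling gave 60.7% of CCl4 calls as higher instead of 54.8%, and 41.2% of interaction calls instead of 50.8%. With the replicate block the calls were 4414 under CCl4, 3904 under MO and 2225 in the interaction, none moved by over 1.5 times; the calls of named genes that changed with it are given beside them, and no other named CCl4 call did. The MO livers' numbers did not pair (correlations -0.129, -0.0943 and -0.231). Of the 143 named genes called under CCl4, 133 were called under every alternative run, and no value reversed. The cause of the lower counts without a library was not tested, beyond there being fewer samples. Depth was similar in both CCl4 groups; genes under 1 CPM rest on few counts, and replicate spread limits the rest.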

Other observations

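Several other gene groups held calls in both directions under CCl4, where 28.8% of all tested genes were called. Of 16 autophagy and lysosome genes 2 were higher in knockout livers, the lysosomal proteases Ctsb and Ctsd, and 4 were lower, among them the autophagy receptor Sqstm1 and the autophagosome genes Map1lc3a and Map1lc3b (37.5% called). Of 22 genes of glycolysis, gluconeogenesis and glycogen 4 were higher, including the hexokinases Hk1 and Hk2, and 3 lower, including Ppargc1a, a coactivator of gluconeogenesis (31.8% called). Iron and metal genes gave 1 higher and 4 lower of 15, the lower ones being ferritin light chain (Ftl1), Hamp2 and the metallothioneins Mt1 and Mt2; 2 were higher without WT library 1 or WT library 4. Of 20 genes of the sulfotransferase and carboxylesterase families 3 were higher (1 without WT library 2 or knockout library 1 or 3) and 6 lower (45% called). Complement and coagulation, in contrast, held calls in 1 direction only, 4 higher and none lower of 23 (17.4% called). These were C1qa, C1qb, C1qc and C8b. Under MO none of that list was higher and 6 were lower (8 lower without the libraries with Xist). The interaction called 7 with a higher effect under CCl4 than under MO (8 without those libraries).

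Oncofetal and injury-induced genes gave 4 higher and 1 lower of 15 (33.3% called). Bile acid genes gave 1 higher (3 without WT library 4) and 3 lower of 19, and xenobiotic receptor targets 2 higher and 5 lower of 20 (35% called). Of the xenobiotic targets 3, 2 and 3 were lower without WT library 1, WT library 4 and knockout library 5; 0 were higher without WT library 4, and 1 was higher with any 1 of WT libraries 2 and 3 and knockout libraries 1, 3, 4 and 5 left out. Periportal genes gave 2 higher and 2 lower of 19, and no more than 1 was higher with any 1 of 7 of the 8 libraries left out; 1 was lower with any 1 of WT library 3 and knockout libraries 1, 3, 4 and 5 left out. NF-kB targets gave 3 higher and none lower of 17 (1 higher without WT library 4), B and plasma cell genes 1 higher of 10 under CCl4 and 8 higher under MO (8 also without the libraries with Xist), and hepatocyte identity genes 1 higher and 1 lower of 14. Of the hepatocyte identity genes 4 were lower with the replicate block, 3 with DESeq2 and 0 to 2 with any 1 library left out. Mesothelial genes (7 tested) and red blood cell genes (4 tested) gave no call in edgeR or DESeq2 under CCl4, with 1 mesothelial and 0 red blood cell genes at an unadjusted p under 0.05.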
